A study of Homo sapiens with 6 samples.

Results

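The mammalian circadian clock is a feedback loop of transcription in which the activators CLOCK and ARNTL (BMAL1) bind E-box elements and drive the PER and CRY genes, whose proteins then return to the nucleus and repress CLOCK and ARNTL. The PAR bZIP factors DBP, TEF and HLF are outputs of the loop that bind D-box elements and carry its rhythm to metabolic and detoxification genes, and DBP is among the most strongly rhythmic transcripts of many tissues. Airway epithelium has a working clock, and growth factor signalling through ERK and CREB is known to act on PER transcription.
Here 10 genes of this loop, taken by symbol (ARNTL, CLOCK, PER1, PER2, PER3, CRY1, CRY2, DBP, TEF and HLF), were read from a table of 28395 genes. All 10 were found, and all 10 passed the filter of a mean signal of at least 10 that left 14215 genes for testing. The libraries came from HCC827, an established human lung adenocarcinoma line driven by an activating deletion in EGFR, grown in serum-containing medium. Of the 6 libraries, 3 were from cells given the vehicle DMSO and 3 from cells given 1 μM erlotinib, an inhibitor of the EGFR kinase, all for 24 h. RNA was sampled at this 1 time only and no synchronisation of the cells is described, so a change of mean level and a shift of phase cannot be told apart. Nor can fewer cells expressing a gene and less RNA per cell in bulk samples. The labels do not say whether the libraries are separate cultures, so p-values measure the spread between these libraries, which may be technical.
The values are given as signal, which is the uniquely mapped reads of a gene divided by the size factor of its library. Dividing by the signal of 1 read gave whole reads for 100% of the values (within 0.02 reads), with totals of 20858083, 24641819 and 21172884 reads in DMSO libraries 1 to 3 and 21944007, 20760204 and 21678395 reads in the erlotinib libraries, numbered 4 to 6 in the table. DMSO library 2 stood somewhat apart, with a chi-square per degree of freedom of 24.3 and 15.2 against DMSO libraries 1 and 3, which gave 7.96 between them, while the erlotinib libraries gave 4.13 to 6.08. All 6 epithelial markers checked (EPCAM, CDH1, KRT7, KRT8, KRT18 and KRT19) were expressed, led by KRT7 with a mean signal of 123690 in DMSO and 79897 under erlotinib. Their summed signal, mostly keratins, was 254720 to 286810 in the DMSO libraries and 185950 to 191720 in the erlotinib libraries. KRT8, KRT18 and KRT19 fell as KRT7 did. EPCAM changed little (9852 in DMSO and 9485 under erlotinib, with overlapping groups). CDH1 was higher in every erlotinib library than in any DMSO library (27824 and 30609, limma adjusted p = 0.0531). Of the 6 fibroblast markers, COL1A2, COL3A1 and DCN had at most 3 reads in every library, and the summed signal, mostly COL1A1, was 73.7 to 109 in DMSO and 215 to 260 under erlotinib. The 4 endothelial markers summed to 15.8 to 34.0 and 45.9 to 58.1, with the largest difference in VWF (3.94 and 27.4). PECAM1 went the other way (15.7 and 10.4, with overlapping groups). The 5 immune markers summed to 2788 to 3169 and 3229 to 3535, almost all of it CD68 (2898 and 3394). CD79A was lower under erlotinib (17.8 and 8.39), while PTPRC, CD3E and LYZ had at most 6 reads in any library. The part of these marker differences in the results below was not tested.

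Erlotinib moved single genes of the clock in different directions, and the split did not follow the activator and repressor arms. CLOCK and CRY1 fell to about 0.60 of their DMSO signal, while PER1, PER2, PER3, CRY2, DBP and TEF rose, by 1.42-fold (PER2) to 6.10-fold (DBP). ARNTL and HLF did not pass the threshold of an adjusted p-value under 0.05 (limma on log2(signal + 1), Benjamini-Hochberg over all 14215 genes). Of the 10 genes, 2 were thus lower and 6 higher, where 35.4% of all tested genes were lower, 35.3% higher and 70.7% either. The median log2 fold change of the 10 was 0.66, against 0.02 over all tested genes. In 9 of the 10 the DMSO and erlotinib libraries did not overlap, which held for 73.6% of all tested genes. With libraries scaled to total counts, the median of all genes moved to 0.19 and the genome-wide split from 5031 lower and 5012 higher to 3955 lower and 6156 higher, while the counts among the 10 genes stayed at 2 and 6.

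**Figure D1:**
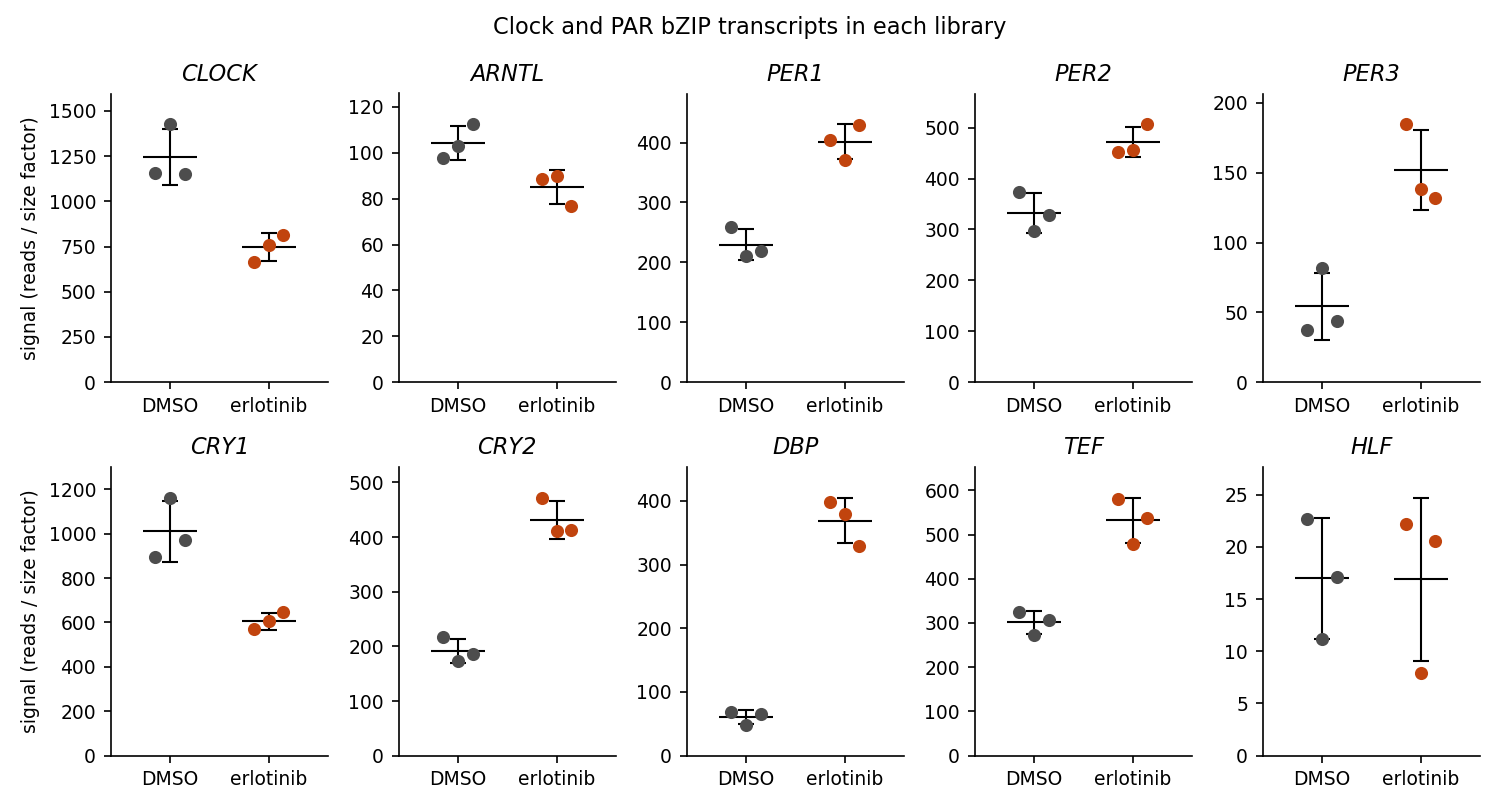
Signal (reads divided by the size factor, linear axis from 0) of each of the 10 genes in the 3 DMSO (grey) and 3 erlotinib (red) libraries, with the mean and SD as bars. The groups are apart in 9 panels and overlap for HLF, and DBP shows the largest fold difference, with 48.3 to 68.1 in DMSO and 330 to 399 under erlotinib.

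CLOCK (Entrez gene 9575, chromosome 4, 55427903 to 55546909 of GRCh38), the bHLH-PAS partner of ARNTL, had a signal of 1159, 1426 and 1154 in DMSO libraries 1 to 3 and of 664, 758 and 816 in erlotinib libraries 4 to 6. Every erlotinib library lay below every DMSO library, and the log2 fold change was -0.74 ± 0.10 (standard error; limma, adjusted p = 1.5e-06). DMSO library 2 was the highest, and without it the log2 fold change was -0.64. TMEM165 overlaps CLOCK by 25495 bases and had a log2 fold change of -0.29 (adjusted p = 0.0033, limma). The strand that was counted is not given in the sources used here, so reads of overlapping genes may not be fully separated.
ARNTL (Entrez gene 406, now named BMAL1, chromosome 11, 13276652 to 13387266) had a signal of 97.6, 103 and 112 in DMSO and 88.6, 90.1 and 76.8 under erlotinib. All erlotinib values were below all DMSO values by a small margin. The log2 fold change of -0.29 (95% confidence interval -0.71 to 0.13) did not pass the threshold, with an adjusted p of 0.200 (limma), and it was -0.11 under total-count scaling.

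The PER genes encode the repressor subunits whose build-up sets the timing of the loop, and all 3 rose. Their promoter windows, from 250 bases before to 50 bases after an annotated start (RefSeq, GRCh38.p14, minus strand for PER1 and PER2 and plus strand for PER3), are shown because these genes moved together, with matches to clock elements in capitals. They are chr17:8152355-8152654 for PER1, chr2:238288561-238288860 for PER2 and chr1:7784041-7784340 for PER3.
PER1: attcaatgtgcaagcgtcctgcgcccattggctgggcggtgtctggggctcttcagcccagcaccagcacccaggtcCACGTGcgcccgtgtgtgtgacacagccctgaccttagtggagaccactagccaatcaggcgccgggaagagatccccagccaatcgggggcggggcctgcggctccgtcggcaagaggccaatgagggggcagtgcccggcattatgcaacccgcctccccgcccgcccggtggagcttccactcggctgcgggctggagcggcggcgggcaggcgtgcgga
PER2: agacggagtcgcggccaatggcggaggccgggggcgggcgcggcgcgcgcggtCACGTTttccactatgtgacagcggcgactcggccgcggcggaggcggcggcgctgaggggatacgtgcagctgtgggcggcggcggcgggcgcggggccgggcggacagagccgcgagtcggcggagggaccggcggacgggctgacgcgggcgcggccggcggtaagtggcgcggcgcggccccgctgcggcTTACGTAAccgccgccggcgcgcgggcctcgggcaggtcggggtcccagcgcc
PER3: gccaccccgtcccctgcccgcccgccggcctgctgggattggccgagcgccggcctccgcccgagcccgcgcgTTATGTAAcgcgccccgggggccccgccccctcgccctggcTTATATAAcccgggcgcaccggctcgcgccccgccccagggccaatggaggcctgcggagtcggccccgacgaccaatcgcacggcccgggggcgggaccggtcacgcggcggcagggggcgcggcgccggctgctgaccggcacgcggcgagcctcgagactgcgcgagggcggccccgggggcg
The capitals mark an E-box (CACGTG) at position -173 of PER1, and an E-prime box (CACGTT) at -197 and a D-box (TTACGTAA) from -3 of PER2. In PER3 they mark a D-box (TTATGTAA) at -177 and TTATATAA at -136, which was searched as a D-box but lacks the G of the others. Positions are counted from the start site to the first base of the match. The form TTATGCAA was not searched, and it stands in lower case in the PER1 window. PER3 has another annotated start, whose window held no match. The PER2 window lies inside the span of the gene given below, and the outer end of that span (238300065) was not searched.
PER1 (Entrez gene 5187, chromosome 17, 8140472 to 8152404), which is also induced by CREB and by glucocorticoids, had a signal of 260, 211 and 218 in DMSO and 404, 371 and 429 under erlotinib. The groups were well apart, and the log2 fold change was 0.81 ± 0.13 (standard error; limma, adjusted p = 1.3e-05).
PER2 (Entrez gene 8864, chromosome 2, 238244044 to 238300065) rose least of the 6 genes that rose, with 373, 296 and 329 in DMSO and 453, 455 and 506 under erlotinib. Its log2 fold change was 0.51 ± 0.12 (standard error; limma, adjusted p = 0.00077). All erlotinib values were above all DMSO values.
PER3 (Entrez gene 8863, chromosome 1, 7784291 to 7845177), the paralogue that is least needed for the rhythm itself, was the lowest of the 3 in every library, with 37.4, 81.7 and 43.9 in DMSO and 185, 139 and 132 under erlotinib. It had the largest log2 fold change of the PER genes, 1.53 ± 0.26 (standard error; limma, adjusted p = 2.5e-05). DMSO library 2 was again the one that differed, well above the other DMSO values, and without it the log2 fold change was 1.86.

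The cryptochromes, the partners of the PER proteins in the repressor complex, moved in opposite directions. CRY1 (Entrez gene 1407, chromosome 12, 106991364 to 107093549), the stronger repressor of CLOCK and ARNTL, had a signal of 896, 1161 and 973 in DMSO and 568, 606 and 645 under erlotinib, and its log2 fold change was -0.73 ± 0.10 (standard error; limma, adjusted p = 2.2e-06). CRY2 (Entrez gene 1408, chromosome 11, 45847118 to 45883244) had 217, 174 and 185 in DMSO and 472, 411 and 413 under erlotinib, and its log2 fold change was 1.17 ± 0.13 (standard error; limma, adjusted p = 1.1e-07). Neither gene's groups overlapped. Per kb of transcript, the ratio of CRY2 to CRY1 within a library was 0.175, 0.108 and 0.138 in DMSO and 0.600, 0.490 and 0.463 under erlotinib, so CRY1 remained the more abundant transcript in every library. The summed level of the pair per kb went from 385 ± 40.9 to 308 ± 7.29 (mean ± SD, n = 3), while that of the PER genes went from 110 ± 8.79 to 184 ± 9.94.

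Of the PAR bZIP genes, DBP changed most of all 10 members. DBP (Entrez gene 1628, chromosome 19, 48630030 to 48637379), a direct target of CLOCK and ARNTL, had a signal of 68.1, 48.3 and 65.3 in DMSO and 399, 379 and 330 under erlotinib. The lowest erlotinib library was several times the highest DMSO library, and the log2 fold change was 2.60 ± 0.18 (standard error; limma, adjusted p = 4.5e-11). A log2 fold change at least as large was seen for 3.07% of all tested genes, with DBP counted and no condition on the adjusted p-value. SPHK2 overlaps DBP by 376 bases and did not pass the threshold, with a signal of 342 ± 48.2 in DMSO and 404 ± 43.3 under erlotinib (mean ± SD, n = 3, limma adjusted p = 0.104). The 3 tested genes whose centred log2 values over the 6 libraries lay closest to those of DBP were UNC5CL, LZTS3 and MTMR11 (root mean square difference 0.05, 0.07 and 0.08 log2 units). For CLOCK, whose fall was the largest in value but within the error of that of CRY1 (-0.74 ± 0.10 and -0.73 ± 0.10), they were NGDN, TDG and MRPL47 (0.03, 0.04 and 0.04). Without DMSO library 1 or without erlotinib library 4, CRY1 fell more (-0.81 against -0.79 for CLOCK, and -0.68 against -0.66).
TEF (Entrez gene 7008, chromosome 22, 41367455 to 41399326), a PAR bZIP factor found in many cell types, had 326, 274 and 306 in DMSO and 580, 479 and 536 under erlotinib. The groups were apart, with a log2 fold change of 0.81 ± 0.12 (standard error; limma, adjusted p = 3.5e-06), close to that of PER1. The window of its first annotated start (chr22:41367205-41367504, plus strand) holds an E-box, in capitals, at position -195.
TEF: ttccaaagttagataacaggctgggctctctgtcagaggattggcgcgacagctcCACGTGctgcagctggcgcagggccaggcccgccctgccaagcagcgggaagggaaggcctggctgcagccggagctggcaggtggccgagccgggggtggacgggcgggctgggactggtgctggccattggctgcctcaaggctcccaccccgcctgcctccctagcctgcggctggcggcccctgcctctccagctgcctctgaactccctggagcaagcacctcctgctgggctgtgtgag
The window of its other start also held an E-box, at -193.
HLF (Entrez gene 3131, chromosome 17, 55264960 to 55325187), best known from liver and as a fusion partner in leukaemia, was near the lower limit of detection, with 8 to 24 reads per library. Its signal was 22.7, 11.1 and 17.1 in DMSO and 22.1, 7.92 and 20.6 under erlotinib, and the groups overlapped fully. The log2 fold change was -0.08 with a 95% confidence interval of -1.13 to 0.98 (adjusted p = 0.901, limma), so a change of about the size seen for TEF or PER1 was not detectable at this depth. Per kb, the ratio of DBP to TEF was 0.422, 0.356 and 0.431 in the DMSO libraries and 1.39, 1.598 and 1.24 in the erlotinib libraries. Per kb of all annotated exons, a length added after the data were seen, the ratio was 0.128 to 0.155 in DMSO and 0.445 to 0.574 under erlotinib, so which of the pair was more abundant under erlotinib depends on the length used.

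Across all 10 genes, 16 promoter windows were searched on both strands. An E-box was found in those of 2 genes (PER1 and TEF) and an E-prime box in those of 4. A D-box in the forms searched was found in those of 2 (PER2 and PER3). A ROR element (TAGGTCA or TGGGTCA) was found in those of 3 (ARNTL, CLOCK and CRY2), and a CRE (TGACGTCA) in that of HLF. Counted by window, 3 of the 16 held an E-box, 4 an E-prime box, 2 a D-box, 3 a ROR element and 1 a CRE. Of 35116 windows of the same length, 7.26% held an E-box, 5.34% an E-prime box, 1.43% a D-box (TTATGTAA, TTACGTAA or TTATATAA), 5.69% a ROR element and 1.85% a CRE. The window of DBP, the gene that rose most, held none of these letters. Sequence farther upstream or deeper within the genes was not searched. No searched motif overlapped another in these windows.

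**Figure D2:**
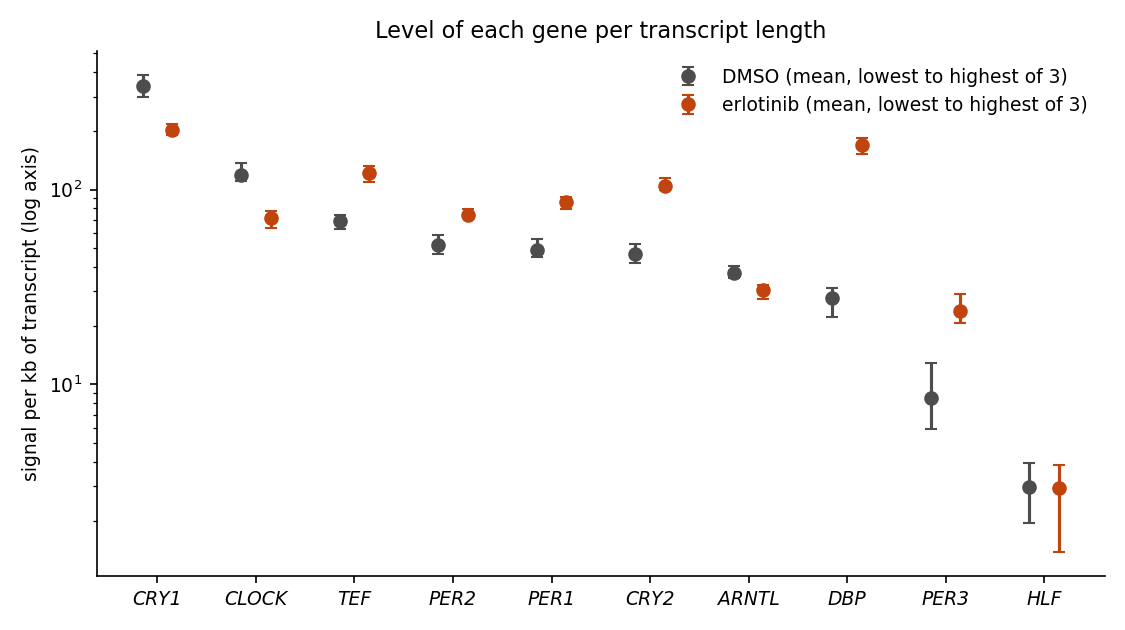
Mean signal per kb of the canonical transcript on a log axis for the 10 genes, in DMSO (grey) and erlotinib (red), with bars from the lowest to the highest of 3 libraries. By this length DBP moves from rank 8 to rank 2, while CRY1 stays highest and HLF lowest in both groups.

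Levels were compared between genes per kb of the GENCODE canonical transcript. In DMSO the order was CRY1 (338 ± 45.6), CLOCK (119 ± 14.8), TEF (68.9 ± 5.95), PER2 (52.1 ± 6.06), PER1 (49.1 ± 5.64), CRY2 (46.4 ± 5.39), ARNTL (37.4 ± 2.69), DBP (27.9 ± 4.93), PER3 (8.54 ± 3.76) and HLF (2.97 ± 1.01) in signal per kb (mean ± SD, n = 3). PER2, PER1 and CRY2 could not be ordered, since the ranges of neighbours overlapped. With erlotinib the order was CRY1 (203 ± 12.8), DBP (170 ± 16.4), TEF (121 ± 11.6), CRY2 (105 ± 8.35), PER1 (85.8 ± 6.17), PER2 (73.9 ± 4.72), CLOCK (71.3 ± 7.37), ARNTL (30.6 ± 2.62), PER3 (23.8 ± 4.50) and HLF (2.95 ± 1.36), again in signal per kb. Here the neighbours TEF and CRY2, PER2 and CLOCK, and ARNTL and PER3 overlapped. The order under erlotinib depends on the length used. With the length of all annotated exons DBP was at rank 7, PER1 at rank 6, below PER2 (rank 4) and CLOCK (rank 5), and PER3 (rank 8) lay above ARNTL (rank 9), while CRY1 stayed highest and HLF lowest. The order in DMSO was the same by either length. The change of a gene between the groups does not depend on its length. Summed per kb, the PER genes were at 0.823, 0.603 and 0.698 of CLOCK and ARNTL in the DMSO libraries and at 1.96, 1.65 and 1.82 in the erlotinib libraries. The paralogues ARNTL2 and NPAS2 are not in this ratio, and ARNTL2 alone was at 1289 per kb in DMSO and 531 under erlotinib.

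The other genes of the core loop were taken from a list of 12, of which 10 could be tested. Of these, 6 were lower, 3 higher and 1 was neither, and the median log2 fold change was -0.44 against 0.02 over all tested genes, of which 35.4% were lower and 35.3% higher. BHLHE40 and BHLHE41 (DEC1 and DEC2), which compete with CLOCK and ARNTL for E-boxes, both fell. BHLHE40 had a signal of 5423, 5452 and 5755 in DMSO and 1268, 1412 and 1480 under erlotinib, a log2 fold change of -2.0, and BHLHE41 fell by 1.40 on the log2 scale. ARNTL2, the paralogue of ARNTL, fell by 1.28, from 8899, 9494 and 8298 to 3660, 3856 and 3470. NPAS2, the paralogue of CLOCK, fell by 0.51. Within a library, ARNTL2 was at 29.8 to 37.2 times the level of ARNTL per kb in DMSO and at 16.7 to 18.3 times under erlotinib, and per kb of all annotated exons at 73.1 to 91.2 and 40.9 to 44.8 times. ARNTL2 was the more abundant of the pair in all 6 libraries by either length. TIMELESS, which in mammals serves mainly in DNA replication, fell by 1.53, and NFIL3, the repressor that competes for D-boxes with the PAR bZIP factors, fell by 0.37.
The nuclear receptors of the second loop act on ROR elements, where the ROR proteins activate and NR1D1 and NR1D2 (REV-ERB) repress. RORA had 32.9, 19.5 and 24.6 in DMSO and 52.6, 41.6 and 61.8 under erlotinib, a log2 fold change of 1.00 (adjusted p = 0.0099, limma). NR1D2 rose from 1480 ± 70.9 to 2252 ± 145 (mean ± SD, n = 3), a log2 fold change of 0.60. NR1D1 was the gene that was neither, with 189, 176 and 225 in DMSO and 205, 187 and 174 under erlotinib and a log2 fold change of -0.05 (95% confidence interval -0.38 to 0.27). THRA overlaps NR1D1 by 1075 bases and rose, with a log2 fold change of 1.46 (adjusted p = 1.3e-09, limma), and reads of the pair may not be fully separated. RORB was listed at 0 in every library, and CIART, a repressor of CLOCK and ARNTL, had 3.40, 4.64 and 5.35 in DMSO and 13.8, 8.91 and 9.36 under erlotinib, under the filter. The adjusted p-values of BHLHE40, BHLHE41, ARNTL2, NPAS2, TIMELESS, NFIL3 and NR1D2 were at most 0.0018 (limma).

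**Figure D3:**
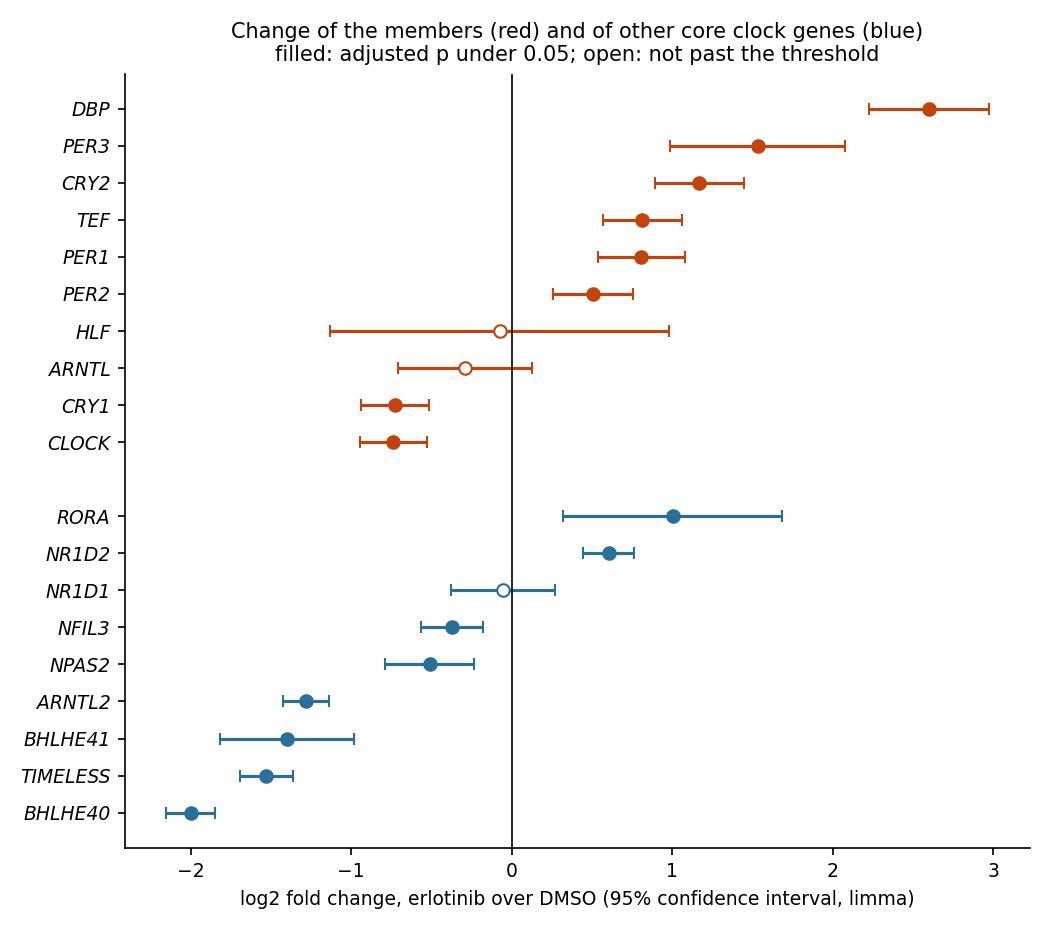
Log2 fold change of erlotinib over DMSO with its 95% confidence interval (limma) for the 10 members (red) and 9 genes of the other core clock list (blue). Filled points passed an adjusted p-value under 0.05. DBP (2.60) lies farthest to the right and BHLHE40 (-2.0) farthest to the left.

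The kinases, ubiquitin ligases and other enzymes that modify clock proteins came from a list of 15 symbols, of which 12 were tested. Of these, 3 were lower, 4 higher and 5 neither, where 35.4% of all tested genes were lower and 35.3% higher, and the median log2 fold change was -0.03. The largest changes were those of CSNK1E (0.57, with overlapping groups), CSNK2A1 (-0.48) and CSNK1D (0.42), casein kinase genes whose products phosphorylate clock proteins. CSNK2B, a kinase subunit that every cell uses, was listed at 0 in all libraries, so a value of 0 in this table need not mean that a gene was silent.
Of 12 genes of the CREB and glucocorticoid inputs to PER transcription, 10 were tested, and 3 were lower, 3 higher and 4 neither (median -0.01), again beside 35.4% and 35.3% of all tested genes. CRTC1, a coactivator of CREB, had the largest change, with a signal of 302, 283 and 364 in DMSO and 815, 746 and 884 under erlotinib and a log2 fold change of 1.37. It was followed by the glucocorticoid-induced genes KLF9 (1.30) and TSC22D3 (1.14). FKBP5, another glucocorticoid-induced gene, and the receptor gene NR3C1, both named after their values were seen, fell by 0.69 and by 0.57 on the log2 scale. CREB1 was at 2633 ± 321 in DMSO and 2878 ± 169 under erlotinib, a difference that did not pass the threshold (adjusted p = 0.154, limma).
Of 11 output genes, 10 were tested, and 4 were lower, 3 higher and 3 neither (median -0.07), beside the same 35.4% and 35.3% of all tested genes. PPARA, a lipid-sensing nuclear receptor that PAR bZIP factors act on in liver, had a signal of 364, 393 and 301 in DMSO and 1955, 1904 and 1827 under erlotinib, a log2 fold change of 2.43. NOCT, a rhythmic gene for an NADPH phosphatase, fell by 1.67, from 743, 512 and 620 to 185, 194 and 201. Of the further genes on the list, 4 that are linked to PAR bZIP factors in liver were named after their values were seen, and had log2 fold changes of 0.82 (PDXK), -0.37 (ALAS1), 0.05 (POR, adjusted p = 0.622) and 0.75 (NR1I3, adjusted p = 0.256, limma). For these 3 lists, total-count scaling moved 1 of the counts each by over 1.5 times.

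**Figure D4:**
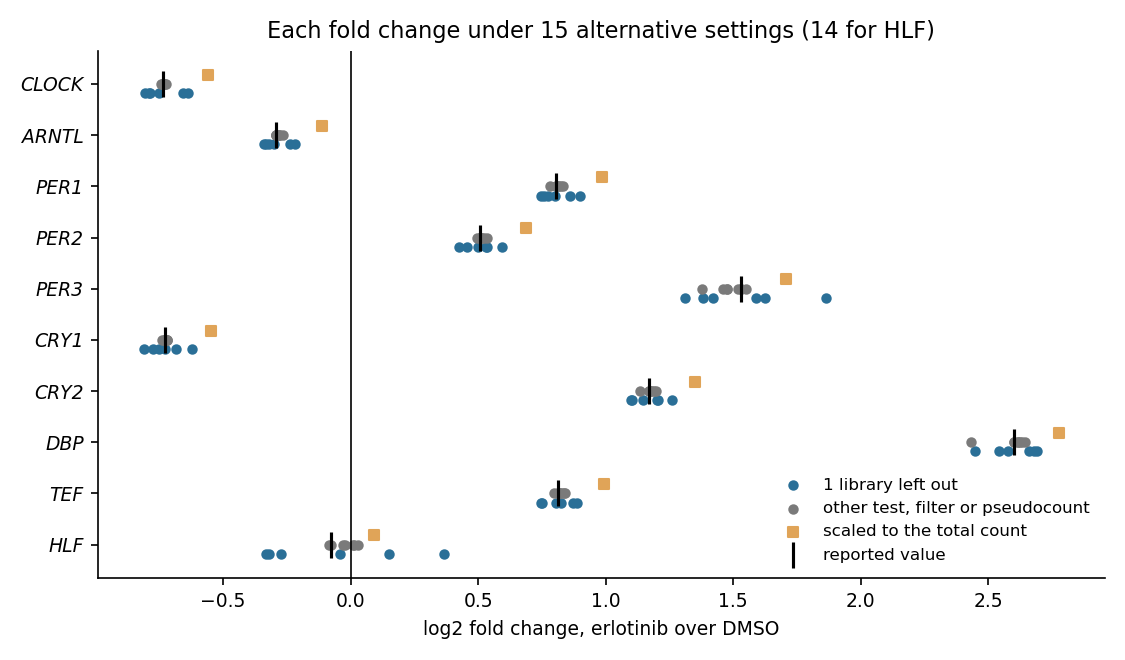
Log2 fold change of each member as reported (black bar), with 1 library left out (blue), with another test, filter or pseudocount (grey) and under total-count scaling (orange). Points stay on their side of 0 for the 8 called genes and ARNTL, and fall on both sides of 0 for HLF.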

How the data were processed

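The 6 libraries, 3 per group, were all used. By the study's methods and the submitters' processing notes, read pairs were aligned to GRCh38 with Bowtie2 2.3.4, unique alignments were counted by featureCounts 1.6.3, and DESeq2 1.18.1 was used for testing. The authors deposited signal, not raw reads: the values show that every library was divided by a size factor of its own. Bowtie2 makes no spliced alignments, so reads over exon junctions can be lost. The 475 rows that carry no symbol stayed in.
Signal was tested with limma 3.58.1 (R 4.3.3) on log2(signal + 1) with a variance trend, two-sided, for 14215 genes whose mean signal reached 10, adjusted by Benjamini-Hochberg and called under 0.05. The tool was tested on simulated data. Fold changes on the log2(signal + 1) scale understate those of low genes. Reads were recovered as whole multiples and used with edgeR 4.0.16, DESeq2 1.42.0 and limma-voom as alternatives, beside total-count scaling, pseudocounts of 0.1 and 10, other filters, a threshold of 0.01 and each library left out. Positions and overlaps are from RefSeq, transcript lengths (canonical, or all exons) from GENCODE 44 (both GRCh38). Named genes are the 10 members, the core clock list, the 3 largest called changes of each further list, and the 3 nearest patterns to the members with the largest rise and fall. Some listed genes that the rule names are not reported here, though the counts of their lists include them. Members and lists were chosen with earlier results of these data known. Figures were drawn with Python 3.11.15 and matplotlib 3.10.9.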

Additional observations from a re-analysis of the deposited data

How the results depend on the processing

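All 8 called members kept their direction and their side of the threshold in every alternative run, and 2 lower and 6 higher members were counted under each. Over all tested genes, 3955 to 5096 were lower and 4323 to 6156 higher, and 4702 to 5096 and 4585 to 5094 with each library left out in turn. ARNTL lay between -0.34 and -0.11 and passed the threshold in none. HLF changed sign with edgeR under TMM (0.0291) or under size factors of the DESeq2 type (0.0140), DESeq2 (0.0107) and total-count scaling (0.0935), and ranged from -0.33 to 0.37 with each library left out. It had too few reads for a minimum of 10 in every library. Total-count scaling lowered the counts of lower genes from 3 to 1 for the kinases and ligases and from 4 to 2 for the output genes, and raised that of higher genes from 3 to 5 for the PER inputs, in a fit whose median over all genes was 0.19. The cause was not tested. No paired analysis was possible because the erlotinib columns are numbered 4 to 6 and cannot be matched to the replicate numbers 1 to 3 of the labels. Depth limits HLF most, at 8 to 24 reads per library.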
